A study of Mus musculus with 8 samples.

Results

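Single-exon circles are circular RNAs (circRNAs) in which the end of 1 exon is joined back to its own beginning, so that the whole circle consists of that exon. They were taken here as all circles of the deposited table typed as circRNA with an exon count of 1. This gave 702 of 27391 circles, beside 25363 circles of several exons and 1326 intronic circles. Every circle was listed with its host gene and with its back-spliced reads, which span the closing junction, normalised by 1 size factor per library. The hearts came from male wild-type (WT) mice. A sham operation had been done in 4 of them, and the other 4 had transverse aortic constriction (TAC), a band around the aorta that makes the left ventricle pump against a raised pressure. All were collected 8 weeks after surgery, with 1 library per mouse, and the sources used here do not give the age or strain of the mice. The libraries of each group are numbered as replicates 1 to 4 in accession order, and the numbers pair no animals.

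Back-splicing uses the ordinary spliceosome: a splice donor is joined to an acceptor that lies upstream of it, in competition with linear splicing of the same pre-mRNA. Long flanking introns, and inverted repeats within them, are known to favour it, and because a circle has no free end it resists exonucleases and can accumulate in cells that rarely divide, such as cardiomyocytes. Circles of 1 exon are typically made from long exons, often the second exon of a gene, and a few of them, such as those of Hipk3, Zfp609 and Slc8a1, have been studied widely in muscle and heart.

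The closing junction is the only stretch of sequence that tells such a circle from the linear exon. It is shown for 6 of the 7 circles that changed in a test and for 6 more of the most abundant ones. Each line gives the last 15 bases of the exon in lower case, followed in capitals by its first 15 bases, read 5′ to 3′ on the strand of the gene, from GENCODE M21 transcripts (mm10).
Slc8a1: gaacgatgaaatagtGTTGGAGCAGTTGGA
Zfp609: gtcaagtctgaaaagCAATGATGTTGTCCA
R3hcc1l: cgtcttctactagagATTGAAGTGGTGCCA
Igf1r: atcgctgccagaaaaTCTGTGGGCCCGGCA
Shoc2: tgcctgctgaaattgGGACTCTAATGAGCT
Thrb: agaagaaatgtaaagAAAATGGCCTTCCAG
Nfix: ttgtccacactccggGATGAGTTCCACCCG
Samd4: ccggcgcaagcacgaGAATCATTAACCAAT
Med13l: atcatgaactgcaggGCTGAACTCACAGGA
Hipk3: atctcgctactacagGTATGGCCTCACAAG
Gab1: atcccacagaagaagGCGTGGAAGAGAAGG
Cdyl: ctgttaatggaaaagGTGGAAAGTATCGTT

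The depth of the libraries differed widely. Sham replicates 1, 3 and 4 and TAC replicates 1, 3 and 4 held 17890 to 100142 back-spliced reads, while sham replicate 2 held 3963 and TAC replicate 2 held 1119. In the latter 2 libraries a single read was worth 4.54 and 5.77 normalised reads, and a count of 0 allowed up to 3 reads, or 13.6 and 17.3 normalised reads, counting error only. Both stood apart from their group in their single-exon circles. Over the 135 circles seen in at least 4 libraries, sham replicate 2 had a mean Spearman correlation of 0.22 with the deep sham libraries and 0.48 with the deep TAC libraries. For TAC replicate 2 these were 0.30 with deep sham and 0.28 with deep TAC libraries, against 0.75 to 0.79 among the deep TAC libraries and 0.57 to 0.61 among the deep sham libraries. The share of reads, the length at the median read and the counts of calls are given with and without these 2 libraries. For single circles this is done in part. Sham replicate 4 held its 100142 reads on 5600 different circles, whereas sham replicate 1 held 40796 reads on 9081. Its mean was 17.98 reads per multi-exon circle seen, against 2.58 to 4.53 in the other deep libraries. Reads summed over libraries therefore weigh sham replicate 4 most.

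Exons that formed a circle alone were long. Their length ran from 105 to 5772 nt with a median of 419 nt (quartiles 272 and 747), while internal exons of the same transcripts were at 148 nt (the median over transcripts of each transcript's median). Of the 698 circles made of an internal exon of a matched transcript, 652 were longer than the median internal exon of that transcript, and 435 (62.3%) were its longest internal exon. The longest circle was exon 2 of Tcf20, a nuclear coregulator of transcription, at 5772 nt (chr15:82851513-82857284, mm10), and it was seen in all 8 libraries. The shortest, at 105 nt, came from the nonmuscle myosin gene Myh9 and rested on 1 read. The median was 541 nt for circles seen in at least 4 libraries and 350 nt for those seen in 1 library. The difference from multi-exon circles was tested within libraries. The exon length at the median read, averaged over the exons of a circle, exceeded that of multi-exon circles in 8 of 8 libraries, by 2.16 ± 0.59 on the log2 scale (SD over libraries), a 4.47-fold ratio. The exact two-sided sign-flip permutation test gave p = 0.0078, the smallest it can give with 8 libraries (Benjamini-Hochberg adjusted 0.012 over the 6 library-level tests). The libraries draw on the same circles and annotation, so this p covers libraries and not the spread between circles or genes. The same holds for the other comparisons with multi-exon circles below.

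**Figure D1:**
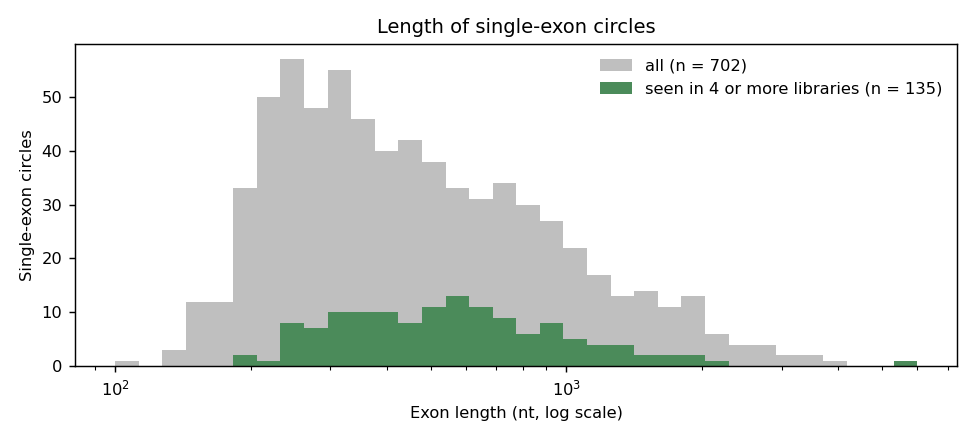
Number of single-exon circles (vertical axis) by exon length in nt (log scale) for all 702 circles in grey and for the 135 seen in 4 or more libraries in green. The median was 419 nt for all of them and 541 nt for the recurrent ones.

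Many also lay early in their genes. Of 701 circles that matched an annotated exon, 280 (39.9%) were exon 2, 110 were exon 3 and 209 (29.8%) were exon 6 or later. Exons were counted from the 5′ end of the transcript. Of the multi-exon circles, 22.5% began at exon 2. Exon 2 circles were longer (median 524 nt) than those of other exons (366 nt). In terms of reads the position was more marked: 64.5 to 84.0% of the single-exon reads of a library came from exon 2 circles, against 32.7 to 36.0% of the multi-exon reads coming from circles that begin at exon 2. The difference, 40.3 ± 5.83 percentage points (SD), had the same direction in 8 of 8 libraries (exact sign-flip permutation p = 0.0078, adjusted 0.012). It was 24.4 points with each circle counted once and 30.3 points with Slc8a1 and Nfix left out. The introns at both sides were long as well, with medians of 8470 nt upstream and 7252 nt downstream, against 5255 and 4126 nt for multi-exon circles. Weighted by reads, the mean log2 length of the flanking introns was higher for single-exon than for multi-exon circles in 8 of 8 libraries, by 1.62 ± 0.35 (SD), or 3.08-fold (exact sign-flip permutation p = 0.0078, adjusted 0.012). Single members varied in this respect. Slc8a1 exon 2 lies between introns of 88670 and 202215 nt, Nfix exon 2 between 1038 and 43816 nt, and exon 12 of the nuclear matrix gene Matr3 between 593 and 2749 nt.

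Most of the exons were coding. The exon lay wholly within the coding sequence in 489 of 701 circles, spanned the 5′ UTR and the coding sequence in 192, the coding sequence and the 3′ UTR in 8, and belonged to a non-coding transcript in 7. The annotated start codon lay inside 193 circles. In 25 of these, reading from that start codon round the circle met no stop codon in 4 turns, and the circles of Slc8a1 and Tcf20 were among the 25. In the other 168 the frame ran for 45 to 3150 nt (median 508.5) before the first stop. In 164 of the 168 it ran past the end of the exon and so across the closing junction. It ran for 1161 nt in Hipk3, 750 nt in Zfp609 and 717 nt in Shoc2, where the exon holds 1097, 747 and 703 nt from the start codon on. Of the 489 wholly coding circles, 184 (37.6%) had a length that is a multiple of 3, against 250 of all 702 (35.6%). Of the 184, 183 had no stop in the reading frame of the gene anywhere round the circle. This was nearly fixed in advance, because only a codon at the closing junction can be new in such a circle. These are properties of the annotated letters and say nothing of translation, which was not measured.

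An example that can be shown whole is the circle of Thrb, the gene of thyroid hormone receptor beta, chosen here after its values were seen because it was the single-exon circle that fell in the count test below. It is exon 4, wholly coding, 261 nt long (chr14:17963061-17963321, mm10, plus strand, GC content 53.3%), with a length that is a multiple of 3 and no stop in frame round the circle. Its first and last 15 bases are in capitals, the bases that meet at the closing junction.
Thrb exon: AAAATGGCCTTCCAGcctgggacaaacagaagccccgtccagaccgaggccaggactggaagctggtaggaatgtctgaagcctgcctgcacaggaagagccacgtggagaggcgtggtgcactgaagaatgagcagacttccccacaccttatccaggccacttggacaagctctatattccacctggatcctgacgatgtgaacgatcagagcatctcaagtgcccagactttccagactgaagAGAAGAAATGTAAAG

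The 702 circles came from 637 of the 6492 host genes of the table. Most hosts, 590, had 1 single-exon circle and 46 had 2. The exception was Ttn, the gene of the giant sarcomere protein titin, with 20. The Ttn circles were unlike the rest in their setting. They lay between exons 32 and 288 of 312, were 232 to 564 nt long and all coding, 19 of the 20 had a length that is a multiple of 3, and their flanking introns had a median of only 95.5 nt. Together they held 135 reads, 7.37% of the reads of all 139 Ttn circles, and 12 of the 20 were seen in 1 library. In sham replicates 1 to 4 their summed level was 8.34, 0, 9.94 and 15.95 normalised reads, and in TAC replicates 1 to 4 it was 4.46, 5.77, 2.06 and 6.36. The groups overlapped. The most abundant, exon 200 (303 nt), held 58 reads, of which 51 came from sham replicate 4.

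Multi-exon circles were listed for 484 of the 637 hosts of a single-exon circle. The single-exon circle held the majority of the circular reads of its host in 241 of 702 cases (34.3%). In 146 of the 241 it held all of them, and there the majority follows from the lack of another circle. Among the 158 single-exon circles with 10 reads or more, the share of all circular reads of the host had a median of 63.4%, and 95 held the majority. The share was 97.5% for Nfix, 97.0% for Med13l, 96.7% for Zfp609, 92.8% for Samd4, 91.7% for Hipk3 and 82.9% for Slc8a1, although the last had 14 different circles. It was 44.6% for Insr, the insulin receptor, whose host listed 22 circles, 39.8% for Kat6b and 3.17% for the Ttn circle of exon 200. Another circle used the same acceptor in 257 of the 702 cases and the same donor in 162. The acceptor of the Gab1 circle, for instance, was also used by 5 other circles.

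Single-exon circles were rare in kind and uneven in level. Of the 702, 397 were seen in 1 library, 109 in 2, 61 in 3, 49 in 4, 26 in 5, 32 in 6, 19 in 7 and 9 in all 8, and 283 (40.3%) rested on 1 read in the whole table. Those of all 8 libraries came from Slc8a1, Nfix, Med13l, Gab1, Tcf20, Setbp1, Pvt1, Kat6b and Klhl8. Together single-exon circles held 14308 of 254236 back-spliced reads (5.63%), and the 10 with the highest mean level held 56.0% of these. The mean number of reads per circle seen was higher than for multi-exon circles in 8 of 8 libraries, by 0.93 ± 0.64 on the log2 scale (SD), or 1.90-fold (exact sign-flip permutation p = 0.0078, adjusted 0.012). A few circles carried much of this mean: the difference was 0.44 with Slc8a1 and Nfix left out (exact p = 0.0078). Of the circles, 186 (26.5%) were seen in sham only, 304 (43.3%) in TAC only and 212 (30.2%) in both groups. For multi-exon circles these shares were 24.1, 47.5 and 28.4%.

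The share of reads in single-exon circles was higher in TAC hearts. It was 3.81, 6.48, 3.82 and 4.19% in sham replicates 1 to 4 and 9.46, 7.51, 8.70 and 7.10% in TAC replicates 1 to 4. Every TAC library thus lay above every sham library, with sham replicate 2 (95% Wilson interval 5.76 to 7.29%) nearest to TAC, and the interval of TAC replicate 2 (6.10 to 9.20%) overlapping it. Intervals cover counting error only. The means were 8.19 ± 1.09% in TAC and 4.58 ± 1.28% in sham (SD, n = 4 each), a difference of 3.61 percentage points. The exact two-sided permutation test gave p = 0.0286, the smallest that 4 against 4 allows (adjusted 0.034 over the 6 tests). Of the 6, those of exon length, exon 2 share and reads per circle were added after the data were seen. Each had the smallest p its test can give, and including them lowers this adjusted value. Without the 2 shallow libraries the difference was 4.48 points, and 3 against 3 cannot go below p = 0.10 in this exact test, the value it had.

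**Figure D2:**
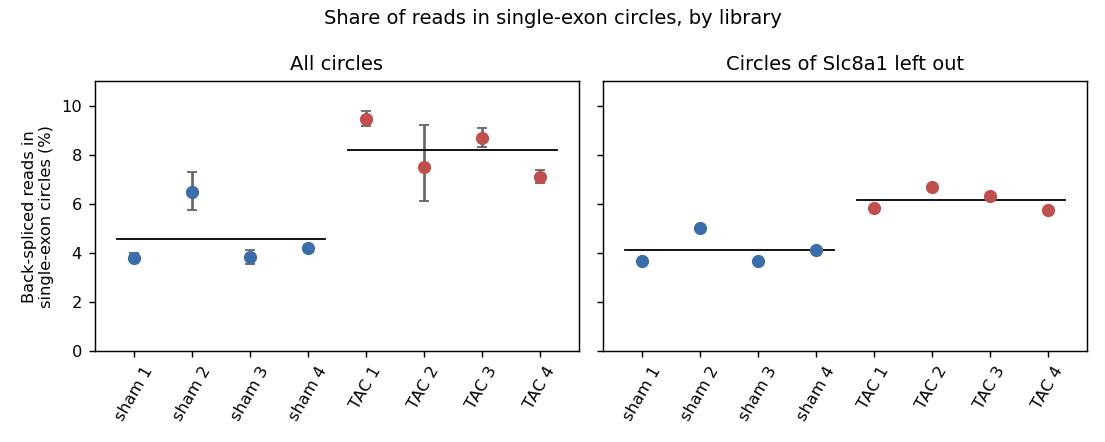
Share of back-spliced reads in single-exon circles (%) for each of the 8 libraries, over all circles (left) and with the circles of Slc8a1 left out (right). Points are libraries, error bars on the left are 95% Wilson intervals and lines are group means. The 4 TAC libraries lay at 7.10 to 9.46% and the 4 sham libraries at 3.81 to 6.48%.

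The difference was also present with the most abundant circle left out. With every circle of Slc8a1 left out, the share was 3.67, 5.03, 3.69 and 4.11% in sham and 5.84, 6.68, 6.31 and 5.77% in TAC replicates 1 to 4, a difference of 2.02 points without overlap (exact permutation p = 0.0286). With Nfix left out as well, the sham libraries lay at 3.24 to 4.395% and the TAC libraries at 4.56 to 5.91% (exact permutation p = 0.0286). Counted only over hosts that have a single-exon circle, the share was 21.1 to 28.3% in sham and 30.7 to 37.8% in TAC (exact permutation p = 0.0286). The higher share belonged to reads and was not seen in the number of kinds of circle. Of the different circles seen in a library, 2.53 to 3.61% were single-exon in sham and 2.65 to 5.11% in TAC, a difference of 0.18 points (exact permutation p = 0.914). The 5.11% was that of TAC replicate 2, on 29 circles. The deep libraries lay at 2.53 to 3.39% in sham and 2.65 to 2.92% in TAC.

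The libraries also differed in the exon length of their single-exon reads, and length moved with the group in the deep libraries only. Within single-exon reads, exons of 1000 nt and over took 12.5, 40.1, 10.53 and 9.27% in sham replicates 1 to 4 and 55.4, 25, 40.5 and 34.05% in TAC replicates 1 to 4. Slc8a1 made up part of the long class: with its circles left out, exons of 1000 nt and over took 8.65, 21.4, 7.13 and 7.46% in sham and 24.6, 14.9, 15.4 and 17.3% in TAC. Exons under 300 nt took 23.5, 13.2, 40.2 and 46.2% in sham and 2.998, 32.1, 4.26 and 7.80% in TAC. Sham replicate 2 lay among the deep TAC libraries for the long exons and between the deep libraries of both groups for the short ones. TAC replicate 2 lay between the deep libraries of both groups for the long exons and among the deep sham libraries for the short ones. The exon length at the median single-exon read was 519, 785, 344 and 318 nt in sham and 1099, 390, 742 and 667 nt in TAC. Its means, 492 ± 215 and 725 ± 292 nt (SD, n = 4 each), differed by 233 nt, and the groups overlapped (exact permutation p = 0.257). Without the circles of Slc8a1 the difference was 75.5 nt (exact permutation p = 0.257). Without the 2 shallow libraries the difference was 442 nt and the groups did not overlap, 318 to 519 nt against 667 to 1099 nt (exact permutation p = 0.10, the smallest for 3 against 3).

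**Figure D3:**
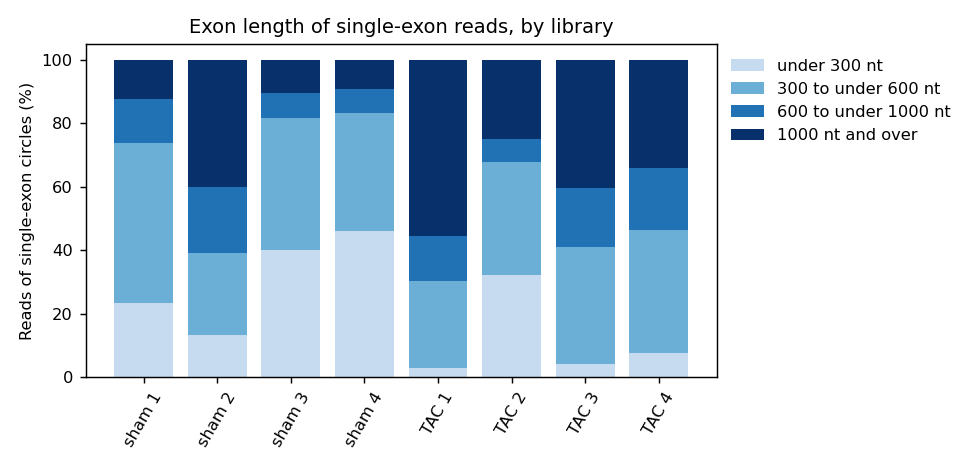
Share of single-exon reads (%) by exon length class for each library, in stacked bars that sum to the single-exon reads of that library. Exons of 1000 nt and over made up 34.05 to 55.4% in TAC replicates 1, 3 and 4 and 9.27 to 12.5% in sham replicates 1, 3 and 4, with sham replicate 2 at 40.1% and TAC replicate 2 at 25%.

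The share was therefore also taken among circles of like spliced length, whatever their number of exons. Among circles of 300 to under 600 nt, single-exon circles held 2.94, 3.29, 2.74 and 2.83% of reads in sham replicates 1 to 4 and 5.30, 5.12, 6.09 and 5.13% in TAC replicates 1 to 4 (difference 2.46 points, exact permutation p = 0.0286). Among circles of 1000 nt and over it was 17.6, 19.3, 15.7 and 18.6% in sham and 32.5, 21.9, 27.4 and 22.5% in TAC (8.26 points, exact permutation p = 0.0286). In both classes every TAC library exceeded every sham library. The longer class holds the Slc8a1 exon 2 circle (1830 nt), which was not left out here. That circle had 65, 61, 25 and 82 reads in sham replicates 1 to 4 and 1281, 10, 543 and 520 in TAC replicates 1 to 4. The class was not compared without it, so no rise of its other single-exon circles is shown. The class of 300 to under 600 nt holds the Nfix exon 2 circle (532 nt), which was not left out either. Nfix had 181, 26, 31 and 188 reads in sham replicates 1 to 4 and 389, 9, 327 and 448 in TAC replicates 1 to 4. For this class, too, no rise of the other single-exon circles is shown. Among circles of 600 to under 1000 nt the groups overlapped, with 2.29 to 6.13% in sham and 5.09 to 11.8% in TAC (3.56 points, exact permutation p = 0.0857). Among circles under 300 nt the difference had the other sign. There the share was 5.29, 6.97, 5.88 and 6.28% in sham replicates 1 to 4 and 3.99, 7.52, 4.78 and 5.74% in TAC replicates 1 to 4, a difference of -0.60 points with overlapping groups (exact permutation p = 0.514). Length still varies within these classes, and its part in the result was not tested further.

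For single circles, the main test was limma on log2(value + 0.195) over all circles seen in at least 4 libraries. It called 1 of the 135 single-exon circles tested, Slc8a1, and it was the 1 called among all 3735 circles tested (0.0268%). At an unadjusted p under 0.05 limma gave 9 single-exon circles, 7 higher and 2 lower in TAC, and 152 of all 3735 circles (4.07%), 73 higher and 79 lower. The median log2 fold change of the 135 was 0.55, against 0.15 for all 3735. The count test of edgeR on the recovered reads tested 36 single-exon circles and called 7, with 6 higher and 1 lower in TAC. Over all 717 circles in that test 13.1% were called, 7.39% higher and 5.72% lower. The median log2 fold change of the 36 was 0.80 against -0.02 for all 717. The split of 6 and 1 was 5 and 0 with RLE size factors, where the median of all circles moved to 0.23, and 2 and 1 with library totals alone. Since both tests keep only circles that pass a filter on low values, the medians describe the circles tested and not the 702.

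The edgeR calls depended on the libraries. Leaving out sham replicate 2 raised them to 16, as did leaving out TAC replicate 2, and without both they were 21 (18 higher, 3 lower, of 344 called among 1145 circles), the 7 included. Without sham replicates 1, 3 or 4 they were 2, 1 and 1, and without TAC replicates 1, 3 or 4 they were 2, 0 and 1. DESeq2 called 1, Shoc2. Leave-one-out counts of limma were 6 when TAC replicate 2 was dropped, 2 when sham replicate 2 was dropped and 0 when TAC replicate 1 was dropped. With both shallow libraries dropped limma called 56 (49 higher, 7 lower, of 1037 called among 5809 circles), where circles seen in the 3 libraries of 1 group alone meet the filter.

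Slc8a1 encodes the sodium-calcium exchanger that extrudes calcium from cardiomyocytes, and its exon 2 circle (chr17:81647809-81649638, 1830 nt) alone held 18.1% of all single-exon reads. Its level was 24.6, 277, 20.7 and 15.95 normalised reads in sham replicates 1 to 4 and 952, 57.7, 559 and 331 in TAC replicates 1 to 4. Sham replicate 2 lay above TAC replicate 2, and the deep libraries were fully apart. The limma log2 fold change was 3.03 ± 0.53 (SE, adjusted p = 4.4e-05) and the edgeR value 2.74 ± 0.95 (adjusted p = 0.036). In this limma fit the SE follows the trend over all circles and not the spread of 1 circle between mice. The limma call was lost without TAC replicate 1 (2.50 ± 0.62, SE, adjusted p = 0.133), after rescaling by TMM (2.92 ± 0.86, adjusted p = 0.872), without the intensity trend (3.03 ± 1.34, adjusted p = 0.849) and where a circle needed 10 reads in each of 4 libraries (3.03 ± 1.05, adjusted p = 0.827). In each of these limma fits the SE was larger than the 0.53 above. With the length trend of each library removed the value itself was lower, at 1.31 ± 0.75 (adjusted p = 0.602). The edgeR call was kept without sham replicate 2 or TAC replicate 2 and lost without each of the other 6 libraries, with adjusted p from 0.108 to 0.239.

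Among the single-exon circles the largest rise in the edgeR test was that of Shoc2, a scaffold of Ras and MAP kinase signalling (exon 2, 930 nt, chr19:53987454-53988383, with 227 nt of 5′ UTR). It stood at 0.38, 4.54, 0 and 0 in sham replicates 1 to 4 and at 15.6, 0, 12.4 and 6.996 in TAC replicates 1 to 4. The sham values rest on 1 read in each of replicates 1 and 2, and the TAC values on 21, 0, 12 and 11 reads. The edgeR log2 fold change was 4.67 ± 1.05 (SE, adjusted p = 0.0020), and the limma value 2.85 ± 1.60 (adjusted p = 0.834). Leaving out TAC replicate 3 ended the edgeR call (adjusted p = 0.066), and it was kept without each other library. Without the 2 shallow libraries limma called Shoc2 (5.33, adjusted p = 0.017), among 1037 called of 5809 circles.

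Zfp609, a nuclear zinc finger protein, has a widely studied exon 2 circle (874 nt, chr9:65794622-65795495, with 127 nt of 5′ UTR). It stood at 0.76, 22.7, 0 and 2.14 in sham replicates 1 to 4 and at 40.2, 0, 71.0 and 61.1 in TAC replicates 1 to 4. The deep TAC libraries all exceeded every sham library, while TAC replicate 2 had no read. The edgeR log2 fold change was 3.84 ± 0.92 (SE, adjusted p = 0.0036), and the limma value 2.94 ± 1.49 (adjusted p = 0.834). In edgeR the adjusted p was 0.077, 0.112 and 0.076 without sham replicates 1, 3 and 4, 0.126 without TAC replicate 3 and 0.056 without TAC replicate 4. Without the 2 shallow libraries limma called Zfp609 (6.21, adjusted p = 0.016), among 1037 called of 5809 circles.

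The other 3 rises had smaller folds, and a receptor was among them. Igf1r, the receptor of insulin-like growth factor 1 (exon 2, 546 nt, chr7:68003810-68004355, all coding), stood at 4.17, 4.54, 3.31 and 0 in sham replicates 1 to 4 and at 11.9, 0, 18.5 and 15.3 in TAC replicates 1 to 4. Its edgeR log2 fold change was 2.16 ± 0.77 (SE, adjusted p = 0.042). Setbp1, which encodes a partner of the SET protein (exon 2, 630 nt), stood at 6.45, 18.2, 0.83 and 1.36 in sham and at 38.7, 17.3, 28.8 and 19.1 in TAC, with an edgeR log2 fold change of 2.38 ± 0.82 (adjusted p = 0.035). R3hcc1l, a protein with an R3H domain (exon 2, 1790 nt, chr19:42562552-42564341), stood at 0.38, 13.6, 3.31 and 1.17 in sham and at 19.3, 0, 13.4 and 10.8 in TAC, with an edgeR log2 fold change of 2.31 ± 0.81 (adjusted p = 0.036). In each of these the deep TAC libraries lay above the deep sham libraries. The 3 calls were kept in edgeR only without sham replicate 2 or TAC replicate 2 and lost without any other single library. By limma the values were 1.40 ± 1.57 for Igf1r, 2.73 ± 1.29 for Setbp1 and 0.98 ± 1.56 for R3hcc1l (SE), and none passed.

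Thrb was the single-exon circle that fell in the edgeR test. The exon printed above stood at 5.69, 13.6, 4.97 and 26.3 normalised reads in sham replicates 1 to 4 and at 3.72, 0, 2.06 and 3.18 in TAC replicates 1 to 4. The listed values of the groups did not overlap, although the 171 reads of the circle included 135 from sham replicate 4. The 0 of TAC replicate 2 allowed up to 17.3 normalised reads, so an overlap there could not be seen. The edgeR log2 fold change was -2.38 ± 0.77 (SE, adjusted p = 0.025), and the limma value -2.73 ± 1.53 (adjusted p = 0.834). Without sham replicate 4 the edgeR value was -1.49 (adjusted p = 0.269), and the call was also lost without sham replicate 3 and without TAC replicates 1, 3 or 4. Without the 2 shallow libraries limma gave -1.59 for Thrb (adjusted p = 0.179).

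The other abundant circles did not pass either test. Nfix, a nuclear factor I transcription factor (exon 2, 532 nt, chr8:84771784-84772315), stood at 68.6, 118, 25.7 and 36.6 in sham replicates 1 to 4 and at 289, 52.0, 337 and 285 in TAC replicates 1 to 4. Its edgeR log2 fold change was 1.92 ± 0.88 (SE, adjusted p = 0.121), and without TAC replicate 2 it was 2.36 (adjusted p = 0.0064). Med13l, a subunit of the kinase module of Mediator (exon 2, 238 nt, chr5:118593333-118593570), stood at 48.5, 18.2, 79.5 and 123 in sham and at 11.2, 75.1, 8.23 and 26.1 in TAC. Its high TAC value and its low sham value came from the 2 shallow libraries. The edgeR log2 fold change was -1.63 ± 0.84 (adjusted p = 0.179), or -2.29 without TAC replicate 2 (adjusted p = 0.015). By limma the values were 1.89 ± 0.55 for Nfix and -1.38 ± 0.86 for Med13l (SE, adjusted p = 0.834 each).

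Hipk3, a nuclear protein kinase (exon 2, 1099 nt, chr2:104470749-104471847), stood at 17.1, 54.5, 8.28 and 13.4 in sham replicates 1 to 4 and at 134.6, 0, 69.0 and 80.8 in TAC replicates 1 to 4, with an edgeR log2 fold change of 1.75 ± 0.82 (SE, adjusted p = 0.128). Cdyl, a chromodomain corepressor (exon 5, 667 nt, chr13:35815909-35816575), stood at 7.58, 45.4, 3.31 and 5.64 in sham and at 43.1, 0, 66.9 and 55.3 in TAC (edgeR 1.86 ± 0.81, adjusted p = 0.097). In both, the deep libraries of the groups were apart and the shallow ones were reversed. Samd4, a translational repressor (exon 3, 519 nt, chr14:47016277-47016795), stood at 44.4, 68.1, 28.2 and 62.5 in sham and at 81.0, 0, 95.7 and 70.6 in TAC (edgeR 0.20 ± 0.78, adjusted p = 0.899). Tcf20, the longest circle, stood at 15.9, 13.6, 13.2 and 22.2 in sham and at 20.8, 40.4, 19.6 and 15.9 in TAC (edgeR 0.23 ± 0.77, adjusted p = 0.882). Efnb2, a membrane-bound ephrin ligand (exon 2, 284 nt), stood at 6.83, 31.8, 19.0 and 41.2 in sham and at 9.67, 0, 11.3 and 20.4 in TAC (edgeR -1.21 ± 0.77, adjusted p = 0.290). By limma the log2 fold change was 0.11 ± 1.05 for Hipk3, 0.53 ± 1.24 for Cdyl, 0.50 ± 1.05 for Tcf20 and -2.16 ± 1.28 for Efnb2 (SE). For Samd4 it had the other sign, -1.41 ± 0.90. That sign rested on the 0 of TAC replicate 2, and the value was 0.77 without that library. With all 8 libraries none of these passed, with adjusted p of 0.834 to 0.997. Without the 2 shallow libraries limma called Hipk3 (2.86, adjusted p = 0.015) and Cdyl (3.33, adjusted p = 0.015), among 1037 called of 5809 circles. Samd4 (0.93), Tcf20 (0.15) and Efnb2 (-0.42) were not called in that fit.

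**Figure D4:**
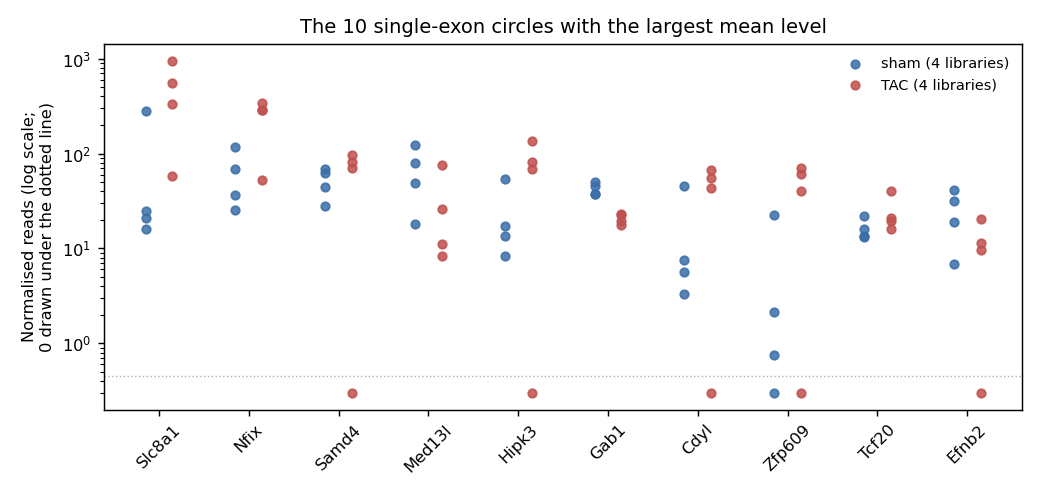
Normalised reads (log scale) of the 10 single-exon circles with the largest mean level, with each point 1 library, sham in blue and TAC in red, and values of 0 drawn under the dotted line. For Gab1 the 4 sham libraries (37.2 to 50.6) and the 4 TAC libraries (17.5 to 23.1) did not overlap, whereas for Slc8a1 sham replicate 2 (277) lay above TAC replicate 2 (57.7).

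For 4 of the 135 circles tested by limma, each TAC library lay on 1 side of each sham library. This held for 3.11% of all 3735, so single-exon circles did not exceed the share of all circles. Gab1, an adaptor that relays receptor tyrosine kinase signals (exon 2, 295 nt, chr8:80800101-80800395), was lower in TAC, at 37.2, 45.4, 37.3 and 50.6 in sham replicates 1 to 4 and 19.3, 23.1, 17.5 and 22.3 in TAC replicates 1 to 4. Here the shallow libraries lay with their groups, on 10 reads in sham replicate 2 and 4 in TAC replicate 2. The edgeR log2 fold change of Gab1 was -1.26 ± 0.79 (SE, adjusted p = 0.290). Kat6b, a histone acetyltransferase (exon 2, 873 nt, chr14:21516626-21517498), was higher, at 6.07, 9.09, 1.66 and 7.004 in sham and 22.3, 11.5, 15.4 and 21.6 in TAC (edgeR 1.49 ± 0.75, adjusted p = 0.167). Its values in sham replicate 2 and TAC replicate 2 rest on 2 reads each. By limma Gab1 was at -1.04 ± 0.90 and Kat6b at 1.72 ± 1.29 (SE, adjusted p = 0.842 and 0.834). Without the 2 shallow libraries limma gave -1.07 for Gab1 and 2.17 for Kat6b (adjusted p = 0.031 and 0.035), among 1037 called of 5809 circles. The circles of Thrb and Sntb2 were lower, each with 0 reads in TAC replicate 2, which allowed up to 17.3 normalised reads. Sntb2, a syntrophin of the dystrophin complex (exon 2, 214 nt), had 1, 2, 3 and 28 reads in sham replicates 1 to 4 and none in TAC. No fold is given for it, and its limma adjusted p was 0.834.

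Some circles were seen in 1 group alone. Of the 702, 21 were seen in all 3 deep TAC libraries and in no sham library, and 4 were seen in all 3 deep sham libraries and in no TAC library. For multi-exon circles these counts were 472 and 112 of 25363, or 1.86 and 0.442%, against 2.99 and 0.570% for single-exon circles. The first group had few reads: Tet3, an enzyme that oxidises methylcytosine (2158 nt), had 7, 2 and 7 reads in TAC replicates 1, 3 and 4, and Foxo3, a forkhead transcription factor (1436 nt), had 2, 3 and 3. The second held circles of Sntb2, Clasp1, Ankle2 (19 of 23 reads in sham replicate 4) and Crk. Tet3, Foxo3, Clasp1, Ankle2 and Crk were named after their values were seen.

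Changes differed with exon length among the circles tested. By edgeR the median log2 fold change was -1.44 for the 4 circles under 300 nt, 0.37 for the 16 of 300 to under 600 nt, 1.82 for the 9 of 600 to under 1000 nt and 1.44 for the 7 of 1000 nt and over. By limma it was -1.08 for 18, 0.27 for 61, 1.20 for 35 and 1.71 for 21 circles. Across circles Spearman's rho between exon length and log2 fold change was 0.69 for the 36 and 0.46 for the 135, as a description, since all circles share the same 8 libraries and their length profile. The GC content of the exon gave 0.08 and 0.17. With the length trend of each library entered as an offset, edgeR called 2 single-exon circles, Shoc2 (3.52, adjusted p = 0.044) and Zfp609 (2.93, adjusted p = 0.044), of 26 among all 712 circles, and the median of the single-exon circles was 0.30 against -0.03 for all. Thrb was then at -1.22 (adjusted p = 0.261) and R3hcc1l at 0.70 (adjusted p = 0.538).

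**Figure D5:**
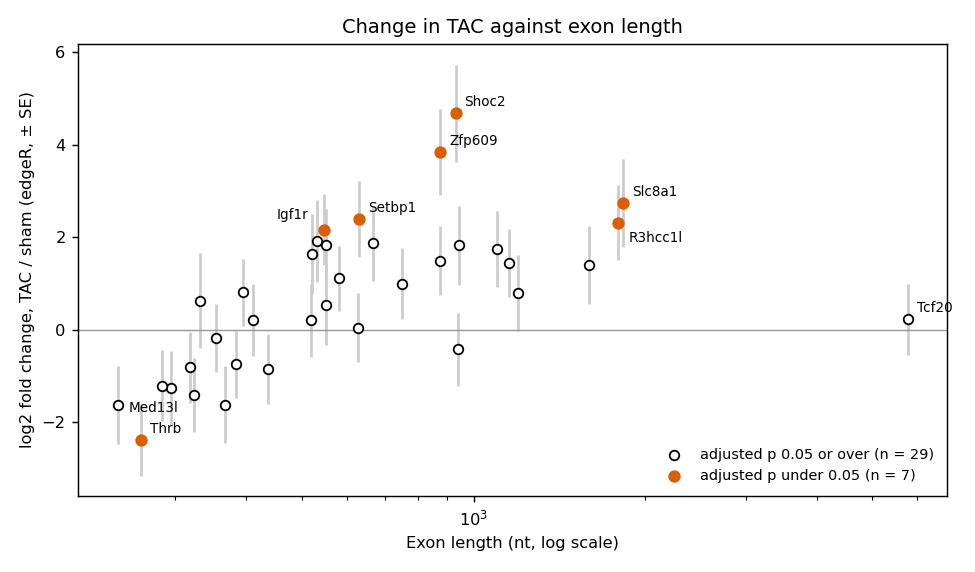
edgeR log2 fold change, TAC against sham (vertical axis, bars ± SE), by exon length in nt (log scale) for the 36 single-exon circles tested, with orange points for the 7 with an adjusted p under 0.05. The 4 circles under 300 nt lay below 0, and the 7 of 1000 nt and over lay between 0.23 and 2.74.

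By gene list, the single-exon circles were spread thinly over the pathways of the heart. Over all 717 circles edgeR called 7.39% higher, as given above, and the lists below held at most 5 circles in that test. Hypertrophic signalling genes had 23 such circles, of which edgeR tested 4 and called 2 higher (Igf1r and Shoc2) and 0 lower, beside Hipk3 and Insr. The exon 2 circle of Insr (552 nt) stood at 6.45, 9.09, 1.66 and 7.78 in sham replicates 1 to 4 and at 34.2, 0, 32.9 and 24.2 in TAC replicates 1 to 4 (edgeR 1.83 ± 0.77, SE, adjusted p = 0.087, and limma 0.64 ± 1.39, adjusted p = 0.973). Without the 2 shallow libraries limma gave 2.72 for Insr (adjusted p = 0.031), among 1037 called of 5809 circles. Zinc finger and other nuclear transcription factors had 41, of which edgeR tested 5 and called 1 higher (Zfp609) and 0 lower. Calcium handling and ion channel genes had 10, of which 1 was tested and called higher, that of Slc8a1. A circle of Jph2, which ties the sarcoplasmic reticulum to the plasma membrane (exon 2, 772 nt), had too few reads for edgeR and stood at 2.65, 0, 1.66 and 0 in sham and at 6.69, 0, 4.12 and 8.27 in TAC (limma 1.98 ± 1.58, adjusted p = 0.836).

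Chromatin regulators had 25 single-exon circles. edgeR tested 1 of them, Kat6b, and limma 6, and neither called any. Among the 6 were Bptf, a subunit of the NURF remodeller (limma -2.40 ± 1.60, SE, adjusted p = 0.834), and Setd2, a methyltransferase of histone H3 (1.17 ± 1.59, adjusted p = 0.932). Sarcomere and Z-disc genes had 29, of which 20 were from Ttn, and limma tested 4 and called 0. RNA-binding and splicing factors had 16 (2 tested by limma, among them Mbnl2, a regulator of muscle splicing, at 2.10 ± 1.58, SE, adjusted p = 0.834). Extracellular matrix and TGF-beta genes had 9 (1 tested, Ltbp1, which binds latent TGF-beta, at -1.86 ± 1.49, adjusted p = 0.836), ubiquitin enzymes 7 (2 tested) and metabolic genes 4 (1 tested, citrate synthase, Cs, at 0.01 ± 1.04, adjusted p = 0.999). In these last 5 lists limma called 0 circles and edgeR tested 0. At an unadjusted p under 0.05 edgeR gave 14 of the 36 single-exon circles it tested, and 28.5% of all 717 circles.

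Markers of the cell types of the heart hosted few single-exon circles outside the cardiomyocyte list. Over the whole table, 702 of 27391 circles were single-exon. Of the 10 cardiomyocyte markers, 6 hosted 26 single-exon circles among 426 of any kind, and 20 of the 26 came from Ttn. The 26 had a summed level of 31.9 to 277 in sham and 63.5 to 959 in TAC libraries, the Slc8a1 circle included. Over circles of every kind, cardiomyocyte markers summed to 190 to 804 in sham and 277 to 1681 in TAC. The markers Pln and Tnni3 had no circle of any kind. Endothelial markers hosted 1, that of the angiopoietin receptor Tek, at 0 in all sham libraries and 0 to 0.64 in TAC. The marker lists of erythroid cells, adipocytes, leukocytes, fibroblasts, Schwann cells with neurons, and smooth muscle with pericytes hosted 0. In that order they held only 4, 9, 28, 21, 13 and 29 circles of any kind, and endothelial markers held 116. With so few circles, a count of 0 does not set these lists apart from the share over the whole table. Over circles of every kind, endothelial markers summed to 42.2 to 90.9 in sham and 40.4 to 119.6 in TAC, with a circle from each of the 13 markers, smooth muscle and pericyte markers to 8.28 to 22.7 and 12.4 to 28.9, fibroblast markers to 2.48 to 5.06 and 0 to 8.18, and leukocyte markers to 7.96 to 19.9 and 11.5 to 24.8, with no circle from Postn, Lum, Cd68 or Csf1r. The part of cell composition in the results above was not tested, and in whole tissue fewer cells of a type and less RNA per cell cannot be told apart.

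The remaining circles of all 8 libraries gave no call. The long non-coding RNA gene Pvt1 had an exon 2 circle (318 nt) at 14.4, 4.54, 24.0 and 16.3 in sham replicates 1 to 4 and at 10.4, 17.3, 11.3 and 8.27 in TAC replicates 1 to 4 (edgeR -0.81 ± 0.77, SE, adjusted p = 0.521). Klhl8, an adaptor of a cullin ubiquitin ligase (exon 2, 384 nt), stood at 12.9, 4.54, 6.62 and 7.98 in sham and at 6.69, 11.5, 6.18 and 4.45 in TAC (edgeR -0.74 ± 0.72, adjusted p = 0.541). In both the groups overlapped, and limma gave -0.15 ± 1.20 for Pvt1 and -0.13 ± 1.37 for Klhl8 (SE). Among circles lower in TAC by edgeR without a call were also Nudcd3, a factor of the dynein motor (exon 2, 323 nt, -1.40 ± 0.80, adjusted p = 0.228), and Matr3 (-1.62 ± 0.83, adjusted p = 0.179). By limma they were at -2.15 ± 1.58 and -1.78 ± 1.60 (SE).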

How the data were processed

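Libraries of circRNA from 8 mouse hearts, 4 sham and 4 TAC, were compared. Per the labels' protocols each group had 4 animals, a kit was used to extract circRNA, and an outside company prepared the libraries. HISAT2, StringTie, DESeq2 and the build mm10 are named by the submitters' processing notes, with no version or role. The sources used here do not give the circRNA caller, the strand or the read length, so overlapping and antisense genes were not separated. The deposited signal is the authors' number of back-spliced reads of a circle over a size factor of its library, which follows from the values and not from a label. Every value was a whole multiple of 1 read (100% within 0.001), and the factors equalled those of DESeq2. Reads were recovered from these steps. Values are not scaled by length.

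Members were the table's rows typed circRNA with an exon count of 1. Members and gene lists were chosen with earlier results of these data known. Exons were matched to GENCODE M21 (701 of 702), and sequences were read from its transcripts. Spliced length was found for 94.8% of all circles. The main test was limma 3.58.1 (intensity trend, log2(value + 0.195)) on circles above 0 in at least 4 of 8 libraries, since the design's count test did not suit the deposited unit. edgeR 4.0.16 (quasi-likelihood, TMM, robust, minimum count 5, minimum total 15) on recovered reads and DESeq2 1.42.0 were alternatives. Benjamini-Hochberg adjustment was over all circles tested, with a threshold of 0.05. For edgeR, library sizes over the circles tested were chosen after 3 versions had been run, because the total of 94 calls then equalled that of an earlier account. The other versions gave 96 in all and the same 7 single-exon calls. The SE of edgeR was derived from its F statistic. Measures with 1 value per library were tested by exact permutation over 70 arrangements or sign flips over 256. Of the 6 tests, those of exon length, exon 2 share and reads per circle were added after the data were seen, as were the comparisons by length class, within hosts, without Nfix and with the length trend modelled.

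The rule for named circles took those past a threshold (filled up to 6 per direction by edgeR p), the 10 most abundant, those in all 8 libraries, the 3 longest and shortest, the top 3 per list, the 5 hosts with most circles, and the circles of Slc8a1, Nfix, Zfp609, Hipk3 and Shoc2. Not all of them are named, and the choice among them was made after their values were seen. Myh9 was named as the shortest circle. Scripts were tested on simulated data.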

Additional observations from a re-analysis of the deposited data

Results flagged for a closer look

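Of the 68 sets of values checked, 8 had 1 library far from the others, where chance alone flags about 1 in 20. The share of reads in single-exon circles had sham replicate 2 far above the other sham libraries, its gap being 0.860 of the group's range. The levels of Slc8a1 (0.967), Cdyl (0.899), Zfp609 (0.906) and Shoc2 (0.917) had the same library far above the other sham libraries. Shoc2 there rested on 1 read. Zfp516 had 1 read in sham replicate 1 and none in the others (gap 1 of the range). The Ttn circle of exon 200 had 51 of its 58 reads in sham replicate 4 (0.847). The difference in flanking intron length between single-exon and multi-exon circles was largest in TAC replicate 1, at 2.37 on the log2 scale against 1.18 to 1.73 in the other libraries (0.536).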

How the results depend on the processing

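No paired analysis was possible because replicate numbers were given in accession order and pair no mice. The difference in the share of single-exon reads turned to -0.60 among circles under 300 nt and kept its direction under the other 17 alternatives. It was 0.18 with each circle counted once, 3.56 within 600 to under 1000 nt and 4.48 without the 2 shallow libraries, each past no threshold, and 3.19 to 4.25 with 1 library left out (exact permutation p = 0.057 when any 1 TAC library was left out). The 4 comparisons with multi-exon circles kept direction and call under each of their alternatives. The count of single-exon circles called by limma, 1, was 0 with the filter of 10 reads in 4 libraries, with TMM, without the intensity trend and with the length trend removed, 56 without the shallow libraries, and 0 to 6 with 1 library left out. That by edgeR, 7, was 3 with library totals, 1 with DESeq2, 1 with a minimum count of 10, 0 without a filter (59 at an unadjusted p under 0.05), 21 without the shallow libraries, 2 with the length offset, and 0 to 16 with 1 library left out. The cause was not tested. Limma signs turned for Samd4 (0.93) and edgeR signs for Tcf20 (-0.079) without the shallow libraries. With the length trend removed limma gave Hipk3 -1.26, Cdyl -0.34, Tcf20 -1.47, Pvt1 0.22 and R3hcc1l -0.73, and with the offset edgeR gave Samd4 -0.24 and Tcf20 -1.61. Cs was at -0.048 with TMM. With 1 library left out, limma ranged from -2.22 to 0.77 for Samd4, -0.82 to 2.33 for Hipk3, -0.25 to 2.56 for Cdyl, -0.026 to 2.46 for Insr, -0.64 to 0.15 for Pvt1, -0.38 to 0.12 for Klhl8 and -0.39 to 0.40 for Cs. Depth limits all values of the 2 shallow libraries, and 283 circles rested on 1 read.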
